A study of Mus musculus with 2 samples.

Results

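A large share of the array read stretches of the mouse genome known only by their position. Each of these probes was named in the deposited files by a chromosome, a start, an end and, with few exceptions, a strand letter, and by no gene or transcript accession. They were taken by that form of name alone, among the spots that were not controls. There were 16194 such probes of 55681 on the array (29.1%), and they read 4610 regions, counted by strand, at 3543 different intervals of the mouse build mm9. Each probe was printed 1 time per array. Outlier flags removed 3 probes, which left 16191 probes of 4609 regions.

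The arrays held total RNA from the lens of newborn mice, at postnatal day 0, on a mixed C57BL/6 background. The control sample was labelled wild-type and described as from litter mates. The knockout sample was labelled Foxp1 KO, specific to the lens. The treatment text of both samples reads Foxp1-flox/flox; Pax6-L-Cre, a floxed allele and a Cre, so the labels leave unclear which of these alleles the control carried. How many animals gave RNA to a sample is not stated. Each group had 1 array, so no difference below has a replicate check, no p-value is given, and every difference is one between these arrays.

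Foxp1 is a forkhead transcription factor that mostly represses its targets. Long intergenic noncoding RNAs are transcribed from stretches between protein-coding genes, and most are spliced and polyadenylated like mRNA but do not code for protein. As a class they are known for low abundance and for expression in few tissues. Some act on chromatin or on neighbouring genes, and for most no function is known. Domains of histone marks that cover active promoters and transcribed bodies have been used to find such genes, so a named interval can be far longer than the RNA made from it, and a probe within it need not lie in an exon. The files hold no annotation of these intervals, so whether each is intergenic, noncoding or part of a known gene was not examined here.

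The tissue and the targeted gene were checked first. All 13 lens markers, among them the crystallins and the fibre membrane protein gene Mip, were above background on both arrays, with a median log2 difference of -0.01. Foxp1 read lower on the knockout array with each of its 3 probes, at 3460.2 against 969.9, at 1677 against 464 and at 97.5 against 38.4. Markers of other cells were dimmer and some of them differed. The summed signal of 8 retina and neuron markers was 4690 in the control and 6838 in the knockout, and the median difference over the measured ones was 0.89. The sum of 5 mesenchyme markers was 816 and 1073, most of it from Pdgfra, at 724 and 708. The other 4 were dim in the control and brighter in the knockout, with Col1a1 at 31.2 and 63.8, Col3a1 at 33.5 and 94.2, Dcn at 22.2 and 157.9, and Lum at 4.34 and 48.9, the last pair above background in the knockout alone. The sums for pigment epithelium, vessel, macrophage and blood markers were 5883 against 5296, 2623 against 2588, 1302 against 1209 and 10837 against 9011. In the same order the median differences over the measured genes were -0.37, -0.01, -0.27 and -0.25. Single genes ran from -0.84 to -0.04 in the pigment epithelium list and from -0.63 to 0.86 in the vessel list. The macrophage gene Cd68 and the blood gene Hbb-b1 were not found by name. The part of these cells in the results below was not tested.

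The regions ranged from 62 to 7128487 bases in length, with a median of 10676 and quartiles of 1758 and 25852. Many overlapped on the same strand, and merging them left 3364 separate stretches, so neighbouring regions do not always read separate transcripts. Strand was given as F for 8169 probes and R for 8009, taken here as the forward and the reverse strand, and 13 probes of 3 regions carried no letter. A region was read by 1 probe in 689 cases and by at least 2 probes in 3920, with at most 10 probes, a number reached by 147 regions. Probes of 1 region share a target and are no replicates of the condition.

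Most of these probes gave little or no signal in newborn lens, though 2869 of 4609 regions (62.2%) had at least 1 probe above background on both arrays. A spot was counted as above background when the scanner software called it well above background. On the control array 8968 of 16191 probes passed (55.4%, exact 95% binomial interval 54.6 to 56.2, counting error only), and on the knockout array 6116 (37.8%, 37.0 to 38.5). Both arrays passed 5600 probes (34.6%), called measured below. The control array alone passed 3368 (20.8%), the knockout array alone 516 (3.19%), and neither passed 6707 (41.4%). Of 278 negative control spots 0 passed on either array, which allows a share of up to 1.08%, and their median signal was 4.71 in the control and 2.74 in the knockout. Detection was lower for these probes than for probes of RefSeq mRNA, of which 77.2% passed in the control and 71.4% in the knockout. Probes of RefSeq noncoding RNA stood closer, at 56.0% and 45.4%, and those of RIKEN cDNA clones at 51.7% and 43.6%. The drop from control to knockout array was thus seen in each class of probe.

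**Figure D1:**
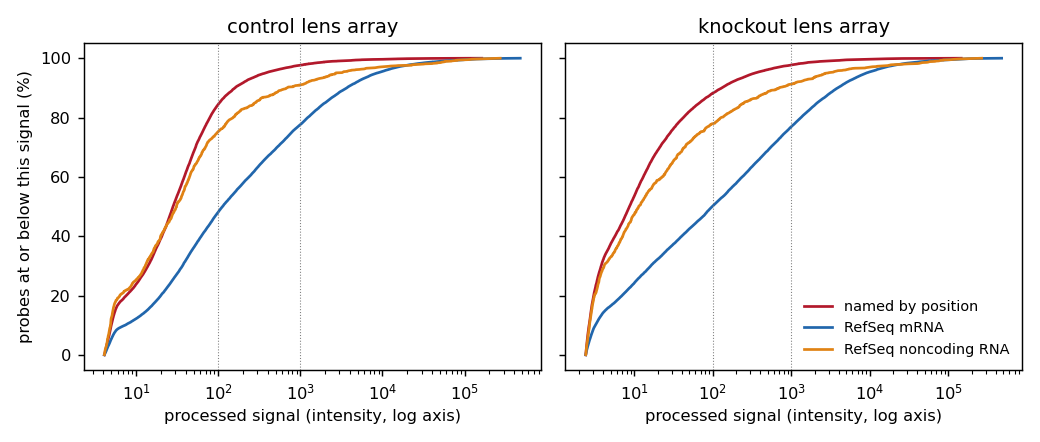
Cumulative share of probes (vertical axis, %) by processed signal (horizontal axis, intensity on a log scale) on the control and the knockout array, for probes named by position, probes of RefSeq mRNA and probes of RefSeq noncoding RNA. Dotted lines mark signals of 100 and 1000. The curve of the probes named by position rises earliest above a signal of 100, and 84.4% of them lie under 100 in the control and 88.3% in the knockout.

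The signals followed the same order. The processed signal, which is the spot brightness after background subtraction, had a median of 28.1 in the control and 8.67 in the knockout over these probes. The upper quartile was 64.0 and 28.9, the 95th percentile 373 and 345, and the 99th percentile 2695 and 2593. The brightest probe read 162393 and 146542. The upper tail thus differed little between the arrays, whereas the dim range was lower on the knockout array. On the control array 13670 probes lay under 100, 2140 from 100 to 1000 and 381 above, and on the knockout array 14289, 1536 and 366. Brightness also depends on the sequence of a probe, so signals of different probes are not set against each other as levels of RNA.

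Differences are given as log2 of the processed signal after subtraction of each array's 75th percentile (283 in the control and 279.9 in the knockout), knockout minus control. A negative value means lower on the knockout array. Direction is relative to that scaling. Scaling by array medians raised every difference by 1.08, turned most of the differences positive, and left 16 probes at least 2-fold lower and 1001 at least 2-fold higher among the measured probes with a signal of 100 or more. Repeat spots of other probes on the same arrays gave a spot SD of the difference of 0.27 for signals under 100, 0.13 from 100 to 1000 and 0.11 above 1000. This error leaves out differences between animals, dissections and labelling reactions.

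Over the 5600 measured probes the median difference was -0.35, with 1236 above 0 and 4364 below. The median over all 29462 measured probes of the array was -0.05. At least 2-fold lower were 1207 of the 5600 (21.6%), and at least 2-fold higher were 14 (0.25%). Of all measured probes of the array 10.5% were at least 2-fold lower and 0.838% at least 2-fold higher. Most of the lower probes were dim, with 1137 of the 1207 under a signal of 100, whereas 6 of the 14 higher ones were. The signal class of a probe was taken from the geometric mean of its processed signal on the arrays.

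Under a signal of 100 the differences were large and mostly negative. Of 14161 probes in this class 3571 were measured, with a median difference of -0.61 and quartiles of -1.19 and -0.21. At least 2-fold lower were 1137 of them (31.8%) and 6 were at least 2-fold higher (0.168%). All measured probes of the class gave 25.9% and 0.743%, and the other probes alone had a median of -0.44. Spike-in RNAs in this range, which are added in equal amounts and do not come from the lens, also read lower on the knockout array. The 3 spike-ins under 100 differed by -2.46, -2.93 and -1.06. The first 2 read 3.59 and 6.79 in the knockout, under the faintest other spot that passed there as above background (12.1). Readings that dim would not count as measured, so only the third can be set beside the medians above. The direction of this class also depended on the scaling, and its median was above 0 after quantile normalization (0.30) and after loess (0.12).

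From 100 to 1000 the probes lay close to equal on the arrays, slightly below 0. All but 1 of the 1658 probes in the class were measured. The 1657 had a median of -0.11, quartiles of -0.32 and 0.08, and an SD of 0.49 over probes. At least 2-fold lower were 58 (3.50%) and at least 2-fold higher 5 (0.302%), whereas all measured probes of the class gave 1.98% and 1.1%. The other probes of the class had a median of 0.03, above that of the probes named by position. In narrower ranges the medians were -0.18 against -0.06 from 100 to 200, -0.08 against 0.03 from 200 to 400, and -0.03 against 0.08 from 400 to 1000. Over the whole class the gap between these medians was -0.13. Array medians and the percentile over measured probes shift all probes alike, so they could not change it. With the scalings that could, it was -0.09 after quantile normalization, -0.09 after loess and -0.11 with normexp. RefSeq noncoding RNA probes of the class had a median of -0.08 and RefSeq mRNA probes one of 0.04. The 2 spike-ins of this class differed by -0.06 and -0.21.

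Above 1000 the median was -0.02 over 372 probes, all measured, with 180 above 0 and 192 below, and an SD of 0.37. The other probes in this range had a median of 0.07. At least 2-fold lower were 12 of the 372 (3.23%), against 0.627% of all measured probes of the class, and at least 2-fold higher were 3 (0.806%), against 0.627%. The 5 spike-ins above 1000 differed by between -0.05 and 0.01.

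**Figure D2:**
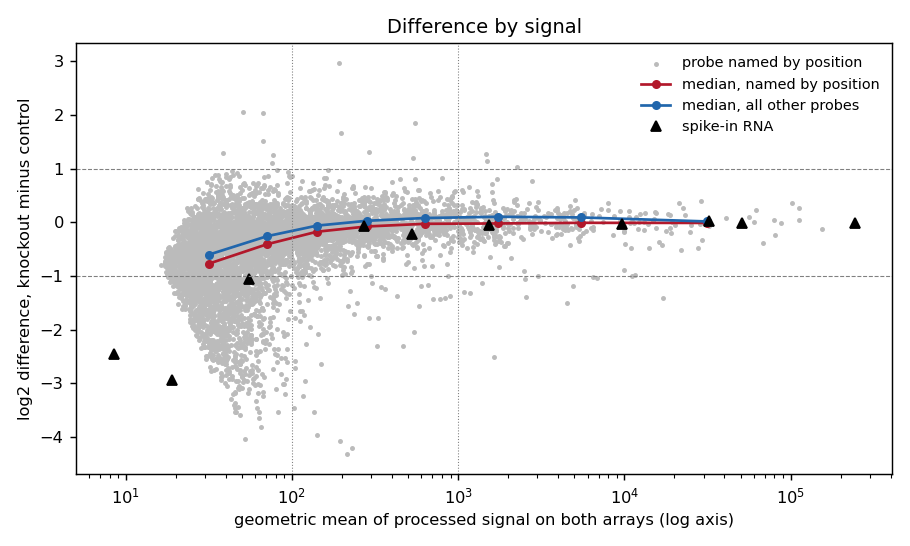
Log2 difference, knockout minus control (vertical axis), against the geometric mean signal (horizontal axis, log scale) of the 5600 measured probes named by position, in grey. Red and blue points join the medians of these probes and of all other probes in 8 ranges of signal, black triangles are spike-in RNAs, dashed lines mark 2-fold and dotted lines the class limits. The medians of the probes named by position fall from -0.01 at the brightest signals to -0.77 between 20 and 50.

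How many probes read far lower depended on the control signal. From 50 to 100 in the control, 698 of 2612 probes (26.7%) lay within 0.5 of 0 and 1025 (39.2%) were at least 4-fold lower, whether or not the knockout reading was above background. With a control signal of 100 to 150, 392 of 806 probes (48.6%) lay within 0.5 of 0 and 204 (25.3%) were at least 4-fold lower. For RefSeq mRNA probes with the same control signal these shares were 64.7% and 7.04%. With a control signal of 500 to 1000, 87.2% lay within 0.5 of 0 and 5.64% were at least 2-fold lower, against 91.7% and 0.507% of mRNA probes. With 3000 or more the lower share was 5.96% (9 of 151), against 0.560% of mRNA probes and 1.67% of noncoding RefSeq probes (1 of 60). The share of lower probes was larger among those named by position than among mRNA or noncoding RefSeq probes at each control signal examined. From 150 to 200 the shares of position and noncoding RefSeq probes were close, at 16.9% and 16.7%, the latter over only 36 probes. Grouping by the control signal alone favours lower readings, and whether it does so equally for each kind of probe was not tested. Nothing is therefore read from the larger share.

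**Figure D3:**
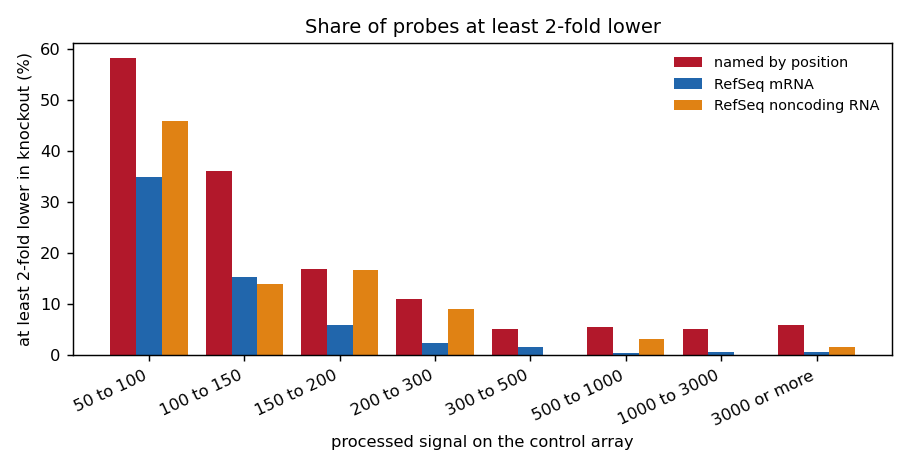
Share of probes with a 2-fold or greater drop in the knockout (vertical axis, %) by the signal on the control array (horizontal axis), for probes named by position (red), RefSeq mRNA (blue) and RefSeq noncoding RNA (orange). Probes not above background on the knockout array are included. The red bars fall from 58.3% at 50 to 100 to between 5.13% and 5.96% from 300 upward.

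The 2029 measured probes with a signal of 100 or more are taken next, since the dim range was lower on the knockout array for spike-ins too. Among them 70 (3.45%) were at least 2-fold lower and 8 (0.394%) at least 2-fold higher, against 1.4% and 0.894% of all measured probes of that brightness. The lower and higher counts were 63 and 9 after quantile normalization, 64 and 8 after loess, 93 and 7 with the percentile over measured probes, and 46 and 6 with normexp background correction. The shares over all measured probes were not taken under these settings. Whether the larger lower share of the probes named by position holds under them was therefore not examined. The 70 lower probes lay in 69 regions and the 8 higher probes in 8.

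The largest lower readings each rested on a single bright probe. A probe in chr8:94849929-94870274 (R), a region read by 1 probe, fell from 969 on the control array to 48.0 in the knockout, which is -4.32 on the log2 scale. In chr17:17315025-17460175 (R) 1 of 3 probes went from 990 to 53.0, a difference of -4.21, while the others read 8.61 or less on both arrays. In chr1:73004154-73007481 (F) 1 of 3 probes went from 803 to 47.1, 16.9-fold lower, and the others were not above background on either array. Each of these 3 regions thus had no second probe that could be read on both arrays. With normexp, which adds an offset, the 10 largest lower differences were smaller in size, between -3.16 and -1.47, and that of the probe in chr1:73004154-73007481 (F) was -2.81.

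In other regions a second probe could be read and did not share the difference. In chr5:121759042-121789992 (R), which had 8 probes, 1 probe went from 564 to 35.8, a difference of -3.97, while the brightest probe read 642 and 505, a difference of -0.33. In chr1:137482591-137625604 (F) the named probe went from 462 to 39.7, and 3 other measured probes differed by -0.14, -0.51 and -0.51. In chr17:13020750-13033750 (F) the named probe went from 362 to 37.9, and the other measured probes lay at -0.46 and 0.34. The 10 probes of chr15:79764481-79809909 (F) were split. Its probes at 577 and 661, at 199 and 221, and at 174 and 163 lay near 0, its brightest probe went from 1878 to 749 (-1.31), and another went from 267 to 40.4 (-2.71). Probes within these regions therefore did not move as 1 unit.

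The region chr14:33895294-33923644 (R) was different, in that its 3 probes all read lower. The named probe went from 345 to 30.8, a difference of -3.47. The others read 130.4 and 81.3 in the control and were not above background in the knockout, which makes them at least 10.66-fold and 6.64-fold lower. The remaining members of the 10 largest lower readings were single probes in chr4:56013597-56020622 (R), from 334 to 42.6, and in chr16:50715231-50841124 (F), from 377 to 59.7, where 5 further probes read under 25 on both arrays.

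Higher readings were fewer and smaller. A probe in chr4:55981894-55986587 (F) went from 68.7 on the control array to 533 on the knockout array, 7.83-fold higher (2.97 on the log2 scale, and 2.15 with normexp), while the region's other probes were not above background on either array. In chr2:170029045-170034220 (R) 1 probe went from 292 to 1041, a difference of 1.85, and another stayed at 249 and 249.7. In chr8:26212577-26218527 (F) 1 probe went from 112 to 351 and in chr17:71242333-71273533 (F) 1 probe from 185 to 453, differences of 1.66 and 1.31. The probe in chr11:97457180-97487074 (R) went from 948 to 2262, and the other measured probes of that region lay at -0.32 and -0.51. Regions read by 1 probe were chr6:142918948-142919051 (F), from 355 to 802, chr9:88610323-88614622 (R), from 1002 to 2199, and chr7:13533925-13544525 (F), from 117 to 229 (0.98). In chr12:88154776-88184372 (R) the bright probe went from 1592 to 3210 (1.03), and 4 dim ones lay between -1.37 and -0.21. The last of the 10, in chr2:128142035-128142481 (R), went from 118 to 208, and there all 3 probes lay above 0, at 0.62, 0.83 and 0.83.

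**Figure D4:**
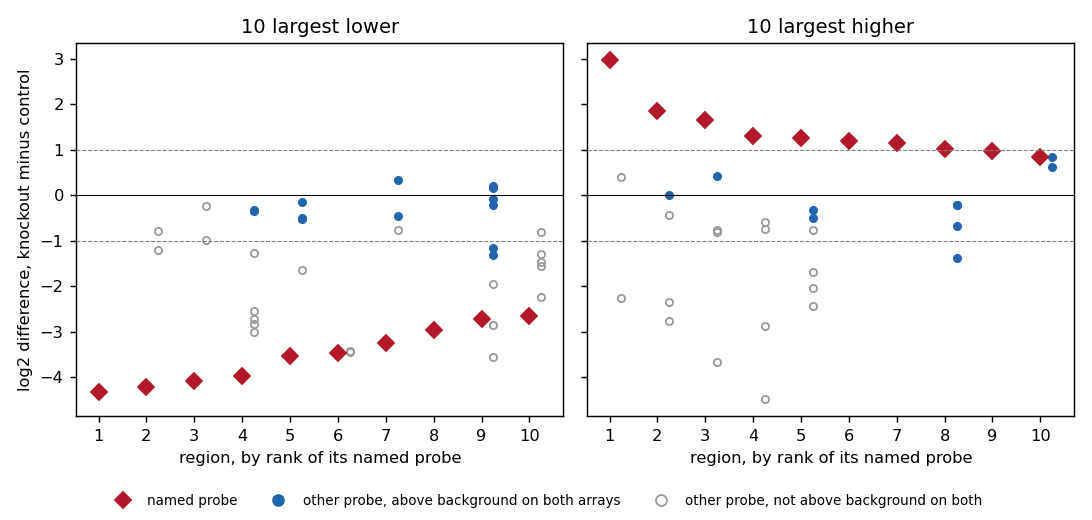
Log2 difference, knockout minus control (vertical axis), of every probe in the regions that hold the 10 largest lower (left) and the 10 largest higher (right) readings among probes of signal 100 or more, with regions ordered by rank (horizontal axis). Red diamonds are the named probes, blue points other measured probes of the same region and open points probes not above background on both arrays; dashed lines mark 2-fold. The blue points lie mostly between -1 and 1, apart from the named probes.

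For most bright calls no other measured probe of the region lay past 2-fold the same way, in part because none was measured. Of the 70 lower probes 5 were the only probe of their region, 19 had no other measured probe, 18 had another measured probe at least 2-fold lower, and 28 had other measured probes of which none was 2-fold lower. Those other probes were often dim, in the range where lower readings were common. Of the 8 higher probes 2 were alone, 2 had no other measured probe, 4 had other measured probes short of 2-fold, and 0 had another at least 2-fold higher. In the 427 regions with at least 2 bright measured probes (1208 probes) the SD of the difference was 0.31 within regions and 0.40 over all of these probes, against a spot SD of 0.11 to 0.13. The median SD of a region was 0.15, so in most of these regions the probes lay closer together than the pooled value shows.

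Regions in which the bright probes moved together were smaller in size. None of the 427 had every bright probe at least 2-fold apart in 1 direction (0 higher and 0 lower), and 5 had all of them at least 1.5-fold higher and 3 at least 1.5-fold lower. The mean over the bright probes was at least 2-fold lower in 6 of the 427 and at least 2-fold higher in 0. Array probes of other kinds were not counted in this way. The following regions were chosen after their values were seen. In chr19:19005109-19008657 (R) the 3 probes went from 308 to 515, from 1291 to 2247 and from 2128 to 3587, with a mean difference of 0.78 ± 0.03 (SD over 3 probes). In chr14:26973425-26986650 (F) the bright probes went from 936 to 1455 and from 184 to 283. The region chr8:90048940-90049461 (F) lies almost wholly within chr8:89996710-90049453 (F), and their 4 bright probes lay between 0.63 and 0.83, so the pair may read 1 transcript. On the lower side chr4:88745770-88774130 (R) had 3 probes that went from 175 to 95.8, from 211 to 113 and from 271 to 151, a mean of -0.86 ± 0.03 (SD over 3 probes). In chr14:115366426-115441225 (F) the bright probes lay at -0.62 and -0.79, and in chr4:149383134-149451259 (R) at -0.80 and -1.65.

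A wider count took every probe that was above background with a signal of 100 or more on at least 1 array, which were 2572 probes, and used a bound where the other array was not above background. It was chosen after the data were seen. Probes that entered by 1 array alone were nearly all bright in the control, 128 against 1 in the knockout, so the choice itself favours lower readings and nothing is read from the direction. Of 556 regions with at least 2 such readable probes, 20 had all of them at least 2-fold lower and 0 had all at least 2-fold higher. The same count was not taken for other probes of the array, so the 20 have no share to be set against. Most of the 20 had control signals between 100 and 200. Of all probes named by position, 25.3% were at least 4-fold lower at control signals of 100 to 150, and 12.3% at 150 to 200. Apart from chr14:33895294-33923644 (R), above, and chr10:126818382-126856582 (R), where 1 of 3 such probes went from 216 to 18.4, higher control signals were found in chr15:51829797-51844247 (F), where 1 probe went from 7654 to 2682 (-1.50) and another from 173 to 21.0 (-3.03). They were also found in chr6:47687025-47728525 (F), with 1240 to 614 and 108 to 9.37, in chr1:182686731-182709331 (F), with 349 to 142 and 157 to 13.4, and in chrX:50400250-50410825 (F), with 253 to 33.2 and 106.9 to 32.5.

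The brightest probes of the set read the same on both arrays within a fold of 1.28. The probe in chr14:78924115-78938125 (F) read 162393 and 146542, a difference of -0.13, though 4 of that region's 7 probes were not above background. The probe in chr17:48068261-48087905 (F) read 111433 and 113322 (0.04), and that in chr6:116092274-116144199 (F) read 102684 and 122295 (0.27). In the latter region the next brightest probes went the other way, from 1940 to 1233 (-0.64) and from 620 to 459 (-0.42). The probe in chr1:193875525-193978800 (R) had a difference of 0.36, while the region's other probe, also bright, lay at -0.68. The probe in chr11:22681800-22707775 (R) had a difference of -0.02 and that in chr12:73838608-73862621 (R) one of -0.24. No probe of the set was saturated (0 spots).

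Above a signal of 1000 the lower probes lay on separate regions, chosen here after their values were seen. The largest was a probe in chr6:95418306-95424131 (R), from 3931 to 685 (-2.51), with 4 other probes under 40 on both arrays. Of those, the measured one lay at -0.92. The brightest was in chr18:90750100-90772025 (R), from 27994 to 10474 (-1.40), with no other measured probe. A probe in chr14:78214602-78226287 (R) went from 4153 to 1557 (-1.40), and the other measured probe lay at -0.56. In chr17:56687541-56694631 (R) a probe went from 7473 to 3242 (-1.19), while another bright probe read 312 and 310.3 (0.00361). The mean over the 3 measured probes there was -0.72. A probe in chr12:77544397-77564122 (R) went from 9893 to 4746 (-1.05), and the other measured probes there lay at -0.69 or lower.

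Regions read by many bright probes were close to equal. There were 39 regions with at least 5 bright measured probes (226 probes), and their mean differences ran from -0.75 to 0.54, with a median of 0.03, 21 above and 18 below 0. None of the 39 means reached 2-fold (0), 4 regions held a probe at least 2-fold lower and 0 a probe at least 2-fold higher. The median SD over the probes of such a region was 0.18. In chr17:26911397-26917047 (F) all 10 probes were bright, and the mean difference was -0.10 ± 0.23 (SD over 10 probes), with the brightest going from 746 to 494. In chr8:119732348-119749198 (F) it was 0.05 ± 0.16 over 9 probes, and in chr2:153163620-153170845 (R) -0.16 ± 0.15 over 8 probes. These regions too were chosen after their values were seen.

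By contrast, the 3 regions that the naming rule took from those with 10 probes had few readable probes. They were chr1:64686823-64728598 (F), chr1:134867906-134885481 (R) and chr1:138528250-138538250 (F). Each had 3 measured probes and 0 with a mean signal of 100 or more, and the mean differences of the measured probes were -1.10, -1.96 and -0.85. The first also held a probe at 679.5 in the control that was not above background in the knockout, given with the bounds. The 3 regions without a strand letter were read by 13 probes. All 3 probes of chr3:34856791-34869544 were bright, with differences of -0.13, 0.11 and -0.13 at control signals of 5594, 1172 and 1603, and the probes of the others were dim.

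Probes above background on 1 array only gave bounds. The bound set the bright reading against the higher of the dim probe's own reading and the faintest spot that passed as above background there, which was 20.6 in the control and 12.1 in the knockout. Of 3368 probes above background on the control array alone 3148 had a bound of at least 2-fold, against 93.2% of all probes of the array in that position, and the median control signal was 39.8. Of 516 on the knockout array alone 13 did, against 4.44%. The share among the probes named by position was 93.5% on the control side, near that of the whole array, and 2.52% on the knockout side, below it.

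The largest bounds on the lower side came from bright control readings. A probe in chr17:13220550-13236900 (R) read 1392 in the control and 2.42 in the knockout, at least 114-fold lower. A probe in chr5:108545733-108546016 (F), the only one of its region, read 1270 and 10.1, at least 104-fold lower. A probe in chr1:64686823-64728598 (F) was at least 55.5-fold lower, one in chr2:176211325-176231650 (F) at least 48.1-fold lower, and one in chr14:46374363-46612845 (R) at least 36.0-fold lower. In chr17:13220550-13236900 (R) the other probes read 46.6 or less on the control array, so no other bright probe bears on that value. On the higher side a probe in chrX:151738814-151740969 (R) read 24.9 and 240.9, at least 9.77-fold higher, while a second probe of the region went from 82.4 to 30.3. Probes in chr17:22420025-22457650 (R) and chr13:98038568-98068079 (F) were at least 4.64-fold and 4.58-fold higher, and those in chr13:60508775-60534625 (F) and chr15:79795261-79796945 (R) at least 2.73-fold and 2.68-fold higher. In chr13:60508775-60534625 (F) the 4 measured probes lay between -0.87 and -0.21, and the measured probe of chr17:22420025-22457650 (R) lay at -0.57. The regions chr13:98038568-98068079 (F) and chr15:79795261-79796945 (R) had 0 measured probes.

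Both strands were probed at 1066 intervals, which allows the strands to be set side by side. At 568 of them (53.3%) at least 1 probe of each strand was measured, at 189 the F strand alone, at 177 the R strand alone, and at 132 neither. Of the F probes at these intervals 34.4% were measured and of the R probes 35.8%, so the letters did not differ in detection by more than 2 percentage points. At 147 intervals both strands had a bright measured probe and at 437 only 1 strand did. Whether reads of both strands come from separate RNAs or from labelling of the opposite strand was not tested.

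The strands of an interval mostly differed little between arrays. Over the 147 intervals the median gap between the mean differences of the strands was 0.24, the largest was 3.32, and both strands had the same sign in 92. The F strand was at least 2-fold lower at 7 intervals and higher at 1, and the R strand lower at 7 and higher at 0. Both strands were at least 2-fold apart at 1 interval, chr8:122807653-122823000, with 1 probe per strand, from 1286 to 475.5 on F (-1.42) and from 184 to 91.0 on R. The interval chr15:51829797-51844247 came close, with -1.50 on F and -0.99 on R, from signals of 7654 against 2682 and 15800.1 against 7856. At the other intervals with a 2-fold strand the opposite strand lay nearer to 0.

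**Figure D5:**
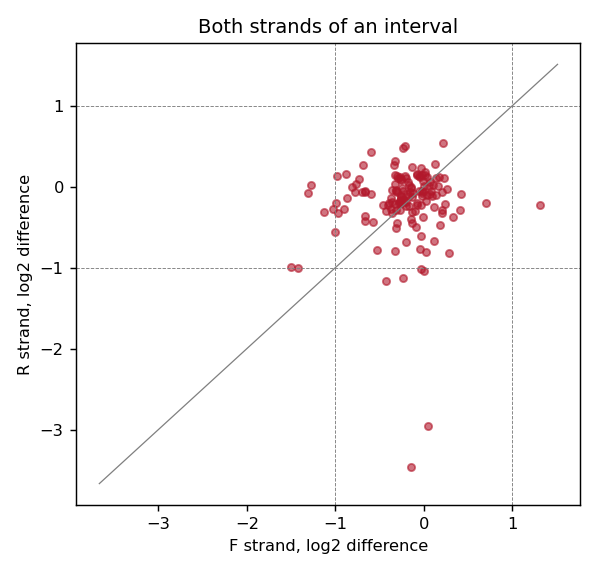
Mean log2 difference, knockout minus control, of the bright measured probes on the R strand (vertical axis) against those on the F strand (horizontal axis) for the 147 intervals with bright probes on both strands. The grey line marks equal values and dashed lines mark 2-fold. Most points lie between -1 and 1 on both axes, and the lowest pair on the vertical axis lies near 0 on the horizontal one.

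The intervals whose strands stood furthest apart held a strongly lower reading on 1 strand. At chr14:33895294-33923644 the R strand probes were the 3 that read lower, whereas the F strand probes went from 182 to 162 (-0.15), from 108.7 to 67.9 (-0.67) and from 32.6 to 59.3 (0.88). At chr9:40029344-40050160 the R strand probe went from 171 to 14.0 and the F strand probe from 103 to 80.9. At chr1:195327945-195336595 the measured F strand probe went from 137 to 14.998, while the R strand probe went from 1429 to 1655. At chr7:35405125-35415223 the F strand probe went from 104 to 13.3 and the measured R strand probe from 47.2 to 52.8. At chr5:74487385-74497428, named after its values were seen, 8 bright F strand probes had a mean of 0.00348 ± 0.37 (SD over 8 probes), and 3 bright R strand probes had a mean of -1.04 ± 0.79 (SD over 3 probes), with single values of -1.96, -0.64 and -0.54.

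Among intervals bright on both strands, chr12:119825125-119850750 read 28998 and 28143 on F (-0.03) and 9187 and 4509 on R (-1.01). At chr7:108209996-108216032 the F probes lay at -0.06 and -0.01 and the R probe, at 57636 and 66704, at 0.22. At chr12:73838608-73862621 the brightest F probe went from 32943 to 25827 (-0.34) and a dimmer one from 217 to 65.0 (-1.73), while the R probes lay at -0.41, -0.18 and -0.24.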

How the data were processed

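Total RNA of each lens sample was hybridised to a 1-colour Agilent mouse array. Per the file headers, the deposited scanner output was made with Agilent Feature Extraction 10.7.3.1 from a 3 micron scan, and the authors deposited intensity values after its background subtraction. The arrays shared 1 slide, and genotype and place on the slide cannot be told apart. Groups were taken from the genotype labels. Control spots and spots flagged as outliers were left out, and log2 of the processed intensity minus each array's 75th percentile over 59305 non-control spots was compared, knockout minus control. A probe was called past 2-fold. Bounds and signal classes are defined above. The named probes were the 10 largest differences in each direction at a signal of 100 or more, the 6 brightest, up to 5 largest bounds each way, the 3 regions with most probes, and 8 intervals by strand (4 brightest on both strands, 4 with the largest gap), with others marked as chosen after their values were seen. The members and lists were chosen with earlier results of these data known. With 1 array per group no test was made, and the number of arrays limits the precision.

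Alternatives were array medians, the percentile over measured probes, quantile normalization, cyclic loess and normexp with offset 50 (limma 3.58.1 in R 4.3.3), no background filter, the positive and significant flag, 1 value per region, folds of 1.5 and 3, and flagged spots kept. The normexp step used median signals, in place of mean signals. The calling of 2-fold differences was run on simulated data with 3-fold changes planted in bright probes. The simulation used the noise of repeat spots alone and set every spot above background. It therefore checks the calculation only, and says nothing about the dim range, the background filter or the lack of replicates. Python 3.11.15, pandas 2.3.3 and numpy 2.4.6 were used. Gene names and sequences of the intervals were not used here.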

Additional observations from a re-analysis of the deposited data

How the results depend on the processing

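The counts over all measured probes moved with the processing. At least 2-fold higher were 14 probes, and 1624 after scaling by array medians, 480 after quantile normalization, 248 after loess, 6 with normexp, 143 with no background filter and 5 with 1 value per region. At least 2-fold lower were 1207, and in the same order 273, 415, 469, 217, 7466 and 636. At 1.5-fold the counts were 101 higher and 2041 lower, and at 3-fold 5 and 542. Over the whole array 3084 measured probes were at least 2-fold lower and 247 higher in the main setting, so lower calls prevailed there too. Array counts under the other settings were not taken. Among the probes named by position the lower share of all calls was 98.9%, against 14.4% with array medians, 46.4% with quantile normalization and 65.4% with loess. The median under a signal of 100 turned positive with array medians (0.46), quantile normalization (0.30) and loess (0.12), and was -0.26 with normexp and -1.10 with no filter. The median of all measured probes turned to 0.73, 0.0751 and 0.00261 under the first 3 of these, and was -0.84 with no filter. With array medians the class from 100 to 1000 had a median of 0.97 and the class above 1000 one of 1.06, and the latter was -0.14 with the percentile over measured probes. The cause was not tested. Under the positive and significant flag 84.7% and 71.8% of probes passed on the control and the knockout array, and both strands were read at 953 intervals. Array medians left 938 and 216 bounds of at least 2-fold on the control and the knockout side, and 11 regions with all readable probes lower; these 3 were chosen after seeing the data. Of 18 named probes past 2-fold, 16 stayed so under all 6 scalings and flag settings, and 0 turned. No paired analysis was possible because each group had 1 array. Signal over background limits the probes under 100.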

Other observations

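Signal was spread over the chromosomes. The share of probes with a measured signal of 100 or more ran from 7.88% on chromosome 9 to 18.0% on chromosome 19, and the share measured from 28.5% on chromosome 9 to 41.8% on chromosome 17. Windows of 1 megabase with at least 4 regions bright enough to read numbered 66. Their median difference was below 0 in 48 and above 0 in 18, and 0 lay past 2-fold. Of the measured single probes 65.4% lay below 0 at signals from 100 to 1000 and 51.6% above 1000. Nothing about position is therefore read from the count of windows. The regions chr4:55981894-55986587 (F), 7.83-fold higher by 1 probe, and chr4:56013597-56020622 (R), with a difference of -2.96 by its only probe, are neighbours on opposite strands.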
